A study of Homo sapiens with 12 samples.

Results

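PANC-1 cells in which the microRNA miR-10b was inhibited (antimir-10b) were compared with PANC-1 cells that received a control inhibitor (antimir control), on 6 of the 12 arrays of the series. The 6 arrays are all those labelled with either oligo, 3 biological replicates of each, and they were normalized and fitted without the other 6. PANC-1 is an established human line from a pancreatic ductal adenocarcinoma. All cells grew in DMEM with fetal bovine serum, penicillin and streptomycin, and total RNA was taken 20 h after transfection of the oligo. The series also holds 3 arrays of premir miR-10b, an oligo that adds miR-10b, and 3 of its own premir control. Each group is 1 cell line under a transfected oligo, without an untransfected group, so the values describe antimir-10b relative to the control oligo and not relative to untouched cells. Of the 47231 probes on the Illumina BeadChip, 19284 had a detection p under 0.05 on at least 3 of the 6 arrays, and these gave 15756 features, 11053 of them with a gene symbol. A feature is 1 gene, read by its probe with the highest mean, or 1 probe without a symbol.

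A microRNA guides the Argonaute silencing complex to messenger RNAs that pair with its seed, and those transcripts are then degraded or translated less. An inhibitor oligo binds the microRNA itself, so a transcript that the microRNA holds down in these cells would be released. MiR-10b is encoded within the HOXD cluster and is known from breast and pancreatic cancer for promoting invasion, with HOXD10, KLF4, NF1, SDC1 and HTATIP2 (also called TIP30) among its described targets. The comparison asks which transcripts differ when miR-10b is inhibited.

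By limma, 0 of 15756 features (0%) were called at an adjusted p under 0.05, and the smallest adjusted p was 0.997. At an unadjusted p under 0.05 there were 519 features, 3.29% of those tested, of which 277 (1.76%) were higher and 242 (1.54%) lower with antimir-10b, where 5% would be 788 features. The 3 antimir-10b arrays lay above all 3 control arrays for 686 features (4.35%) and below them for 651 (4.13%). The middle 90% of the log2 differences ran from -0.24 to 0.24, and 50.4% were above 0. Under the authors' own scaling 68.4% were above 0, and under median centring in place of quantile normalization 70.7%, so a direction near 0 depends on the scaling. The arrays were nonetheless precise: the median standard error was 0.13, and for 14078 features (89.4%) the whole 95% interval of the difference lay within 1.5-fold either way. For 15687 features (99.6%) it lay within 2-fold. Group means accounted for 17.4% of the summed spread of the 6 arrays, where 20% is expected if the groups do not differ.

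The arrays were of like quality, with a median raw signal of 64.5 to 72.9 and 39.8% to 41.3% of probes detected. Pairwise correlations of log2 signal ran from 0.984 to 0.996, the lowest being between antimir-10b replicate 3 and antimir control replicate 1. Those 2 arrays held 25.9% and 21.8% of the spread within groups. The probe for the MIR10B transcript was detected on 1 antimir-10b array and 0 control arrays. Mature miR-10b was not analysed here, so the inhibition itself has no check in these values. In the opposite arm, premir miR-10b replicate 2 stood apart from all other arrays and was left out wherever that arm is used, which left 5 arrays there.

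**Figure D1:**
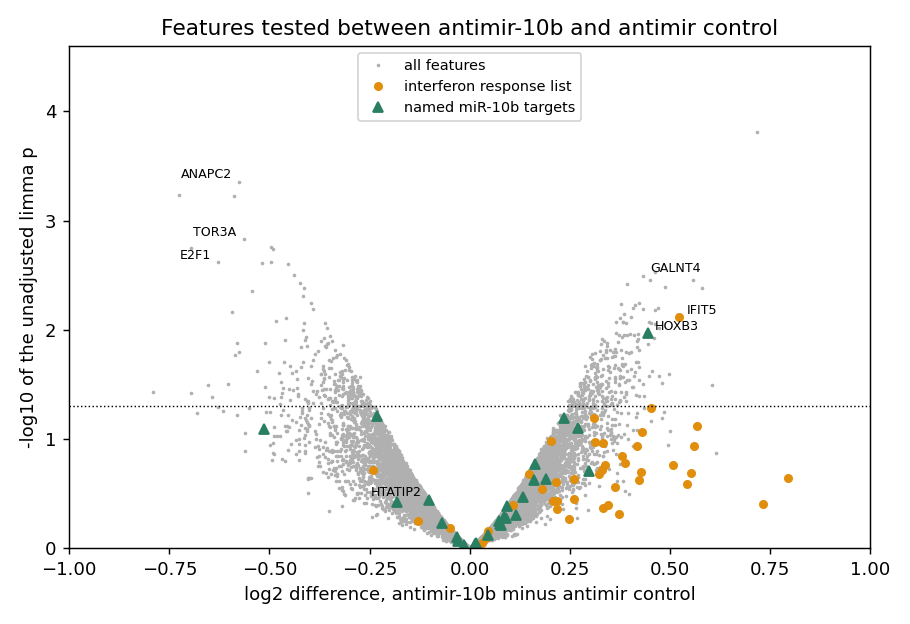
Each point is 1 of the 15756 features, with its log2 difference (antimir-10b minus antimir control, x axis) against -log10 of its unadjusted limma p (y axis); the dotted line lies at 0.05 on that scale. Orange circles are the 42 measured interferon response genes and green triangles the 26 measured named miR-10b targets. Points reach a difference of 0.79 on either side, and 0 features were called after adjustment.

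On the lower side the smallest p of a gene with a symbol was that of ANAPC2, a catalytic core subunit of the anaphase-promoting complex. ANAPC2 read 5.71, 5.72 and 5.51 with antimir-10b, against 6.25, 6.19 and 6.23 in controls, on the normalized log2 scale. Its groups were separated by more than either group's own range, with a difference of -0.57 (95% interval -0.83 to -0.32), an unadjusted limma p of 0.000442 and an adjusted p of 0.997. E2F1, the transcription factor that switches on S-phase genes, read 5.99, 5.96 and 5.82 with antimir-10b and 6.25, 6.88 and 6.52 in controls. The groups did not overlap, although the controls spread from 6.25 to 6.88, and the difference was -0.63 (95% interval -0.98 to -0.28). PDGFA, a platelet-derived growth factor chain, read 5.36, 5.34 and 5.29 with antimir-10b, against 5.93, 5.94 and 5.61 in controls, a difference of -0.50. ANAPC2, E2F1 and PDGFA were all dim, in the lowest part of the detected range.

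TOR3A, an ATPase of the torsin family, read 8.71, 8.77 and 8.49 with antimir-10b and 9.22, 9.38 and 9.05 in controls, a difference of -0.56. PHLDA2, an imprinted gene with a pleckstrin homology domain, read 9.37, 9.63 and 9.60 with antimir-10b and 10.1, 10.1 and 9.98 in controls, a difference of -0.50. ETV4, an ETS factor that follows ERK signalling, read 7.49, 7.36 and 7.28 with antimir-10b and 7.74, 7.84 and 7.81 in controls. Its difference was -0.42, with -0.21 at its other probe. NSMCE3, a subunit of the SMC5/6 complex, differed by -0.49, the formin FMNL1 by -0.45, the ribosome assembly factor PPAN by -0.42 and the folate transporter SLC46A1 by -0.41. MANEAL (-0.40; other probes 0.13 and -0.01) and XRRA1 (-0.39) completed the 12 smallest p values on this side. The largest differences without overlap added DNAJB5, a co-chaperone (-0.59; other probe -0.10), TRNP1 (-0.58), the Golgi calcium-binding protein gene SDF4 (-0.50; other probe -0.68) and PIGO, an enzyme of GPI anchor synthesis (-0.50; other probes -0.36 and -0.22). In DNAJB5, TRNP1, SDF4 and PIGO the antimir-10b group was widened by replicate 3, the lowest of the 3 in each; it read 5.69, 8.84, 10.1 and 7.74. In bulk RNA a lower value can mean less of the transcript per cell or fewer cells that carry it, and these cannot be told apart.

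On the higher side GALNT4, an enzyme that starts mucin-type O-glycosylation, read 6.61, 6.65 and 6.69 with antimir-10b, against 6.10, 6.31 and 6.23 in controls. The difference was 0.43 (95% interval 0.18 to 0.68), with an unadjusted limma p of 0.00319 and an adjusted p of 0.997. IDH1, the cytosolic isocitrate dehydrogenase that makes NADPH, read 9.99, 10.1 and 9.86 with antimir-10b, against 9.46, 9.55 and 9.68 in controls, a difference of 0.41. Its other probe gave 0.07, so the probes of IDH1 disagree. CBFA2T2, a corepressor of the ETO family, read 7.19, 6.998 and 6.978 with antimir-10b and 6.79, 6.42 and 6.50 in controls, a difference of 0.49. LAPTM4A, a lysosomal membrane protein gene, read 8.44, 8.36 and 8.47 with antimir-10b and 7.97, 8.17 and 7.998 in controls, a difference of 0.37.

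The others on the higher side were the zinc finger gene ZNF574 (0.45), the lysine methyltransferase SETD6 (0.47), SNRNP48 of the minor spliceosome (0.43), the transcriptional regulator PRDM16 (0.46), the syntenin gene SDCBP2 (0.42), TVP23C (0.38), BEND6 (0.40; other probe 0.26) and the interferon-induced gene IFIT5 (0.52). PRDM16 and SDCBP2 were detected on 2 of the 3 control arrays and so lie at the edge of detection. The largest differences without overlap added SENP7, a SUMO protease (0.47; other probe 0.17), GSTM3, a glutathione transferase (0.47), LNX2, a ubiquitin ligase (0.46), and DENND2B, an exchange factor for Rab GTPases (0.46; other probes 0.05 and 0.37). The feature with the smallest p of all, 0.000153 and a difference of 0.72, was a probe without a symbol. In all, 5 features differed by over 1.5-fold upward and 14 downward. The outermost with a symbol were OAS2 at 0.79 and MARK2, a microtubule affinity kinase, at -0.79. MARK2 read 6.52, 7.10 and 5.87 with antimir-10b and 7.91, 7.29 and 6.66 in controls, so its groups overlapped and its 95% interval ran from -1.52 to -0.06. OAS2 and MARK2 are named here after their values were seen.

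**Figure D2:**
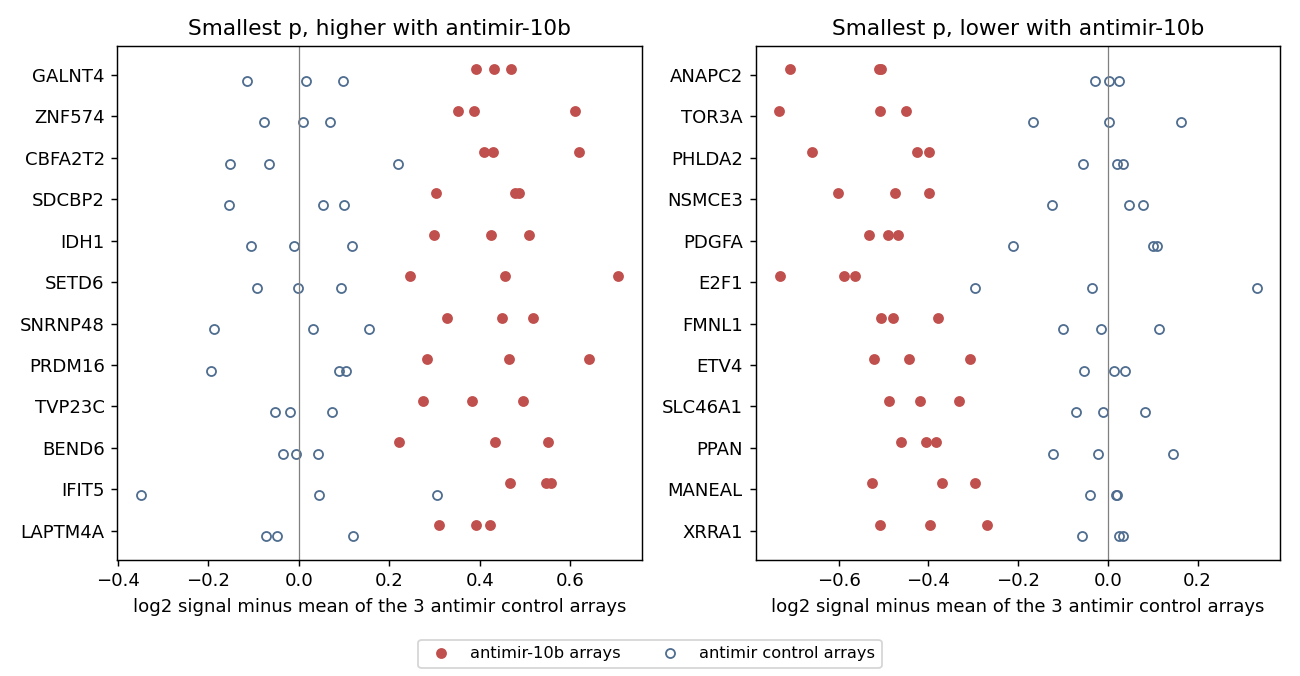
Log2 signal of each array minus the mean of the 3 antimir control arrays (x axis) for the 12 genes with the smallest unadjusted p on the higher side (left) and on the lower side (right). Filled red circles are the 3 antimir-10b arrays and open blue circles the 3 antimir control arrays. In all 24 genes the groups are separated, with means 0.37 (LAPTM4A) to 0.63 (E2F1) log2 units apart, and each was chosen for its small p among 15756.

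The described miR-10b targets were examined by name. HTATIP2, a metastasis suppressor and the target reported in pancreatic cancer cells, read 10.93, 10.93 and 10.86 with antimir-10b, against 11.02, 10.97 and 11.03 in controls. All 3 antimir-10b arrays lay below the controls, by a difference of -0.10 (95% interval -0.34 to 0.14). The difference was 0.02 under median centring and 0.04 under the authors' own scaling, which move the median of all features to 0.08 and 0.07. Relative to that median HTATIP2 stayed below 0, at -0.06 and -0.03. The same gene was lower by 1.05 log2 units after premir miR-10b, and a rise of that size after antimir-10b lies outside the interval. SDC1, the cell-surface proteoglycan syndecan-1, read 11.05, 11.13 and 10.95 with antimir-10b and 11.27, 11.09 and 10.97 in controls. The groups overlapped at a difference of -0.07 (-0.34 to 0.20), and the premir difference was -1.24. The same scalings gave 0.06 and 0.08, or -0.02 and 0.01 relative to the median of all features.

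The measured targets that encode transcription factors differed in both directions. HOXB3, a homeobox gene, read 7.94, 7.81 and 7.69 with antimir-10b, against 7.47, 7.09 and 7.54 in controls. The groups did not overlap and the difference was 0.44 (95% interval 0.13 to 0.76), with an unadjusted limma p of 0.0107 and an adjusted p of 0.997. Its other probe gave 0.02 (-0.30 to 0.34), and its premir difference was -0.39, which was not called (limma adjusted p 0.517). KLF4, a zinc finger factor of epithelial differentiation, read 6.69, 6.58 and 6.81 with antimir-10b and 6.48, 6.43 and 6.46 in controls. Its groups did not overlap, with a difference of 0.24 (-0.02 to 0.49) and 0.41 at its other probe. After premir miR-10b KLF4 differed by -0.29, which was not called (limma adjusted p 0.851). E2F7, a repressor of E2F target genes, differed by 0.19 (-0.14 to 0.52), and TFAP2C, an AP-2 factor, by 0.05. USF2, a helix-loop-helix factor, had the most negative difference of the list, -0.51 (-1.10 to 0.07), with antimir-10b replicate 3 at 8.06 and the other 5 arrays between 9.03 and 9.64. HOXD10 was detected on 0 of the 6 arrays.

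Targets with roles in growth or signalling gave small differences. CDKN1A, the cyclin-dependent kinase inhibitor p21, read 10.24, 10.32 and 10.38 with antimir-10b, against 10.51, 10.59 and 10.53 in controls. Its groups did not overlap, with a difference of -0.23 (-0.47 to 0.01). After premir miR-10b CDKN1A differed by 0.44, which was not called (limma adjusted p 0.506). BCL2L11, the proapoptotic BH3-only protein BIM, read 5.61, 5.58 and 5.68 with antimir-10b and 5.44, 5.54 and 5.41 in controls, without overlap and with a difference of 0.16. NF1, the Ras GTPase activator neurofibromin, differed by 0.07 and TIAM1, an exchange factor for Rac, by -0.03, both with overlapping groups. BDNF did not pass the detection filter. EGFR, the epidermal growth factor receptor, which is not on the target list, differed by 0.12 (other probes -0.08 and 0.23). CDH1, epithelial cadherin, read 6.35, 5.92 and 5.31 with antimir-10b and 5.56, 5.59 and 5.53 in controls, with a difference of 0.30 (-0.18 to 0.77). VIM, the mesenchymal filament vimentin, also not on the target list, differed by 0.07 (other probe -0.12).

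Other named targets had strongly negative premir differences. The choice of genes to name took in targets that fell after premir miR-10b in these data, so these falls partly describe that choice. CRLF3, a cytokine receptor-like factor, read 8.71, 8.26 and 8.63 with antimir-10b, against 8.35, 8.19 and 8.25 in controls. The groups overlapped at a difference of 0.27 (-0.04 to 0.58; other probe 0.09), against -2.16 after premir miR-10b. RAP2A, a small GTPase, differed by 0.08 against -1.89, BTRC, an F-box protein that picks substrates for ubiquitylation, by -0.02 against -1.50, and ELOVL2, a fatty acid elongase, by 0.12 against -1.02. WDR26 differed by 0.13 against -0.90 and MAP3K7, the kinase TAK1, by -0.03 against -0.82, a premir difference that was itself not called (limma adjusted p 0.122). Of the 44 named targets 26 passed the detection filter, and 18 of these were above 0 with a median of 0.08, where all features had 50.4% above 0 and a median of 0.001. By overlap, 3 targets (HOXB3, KLF4 and BCL2L11) lay wholly above the controls and 2 (HTATIP2 and CDKN1A) wholly below, 11.5% and 7.69% of the 26, where the shares over all features were 4.35% and 4.13%. Only HOXB3 among the 26 had a 95% interval that left out 0. The median was 0.02 without antimir control replicate 1, -0.004 without replicate 1 of both groups, and 0.02 without the detection filter.

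**Figure D3:**
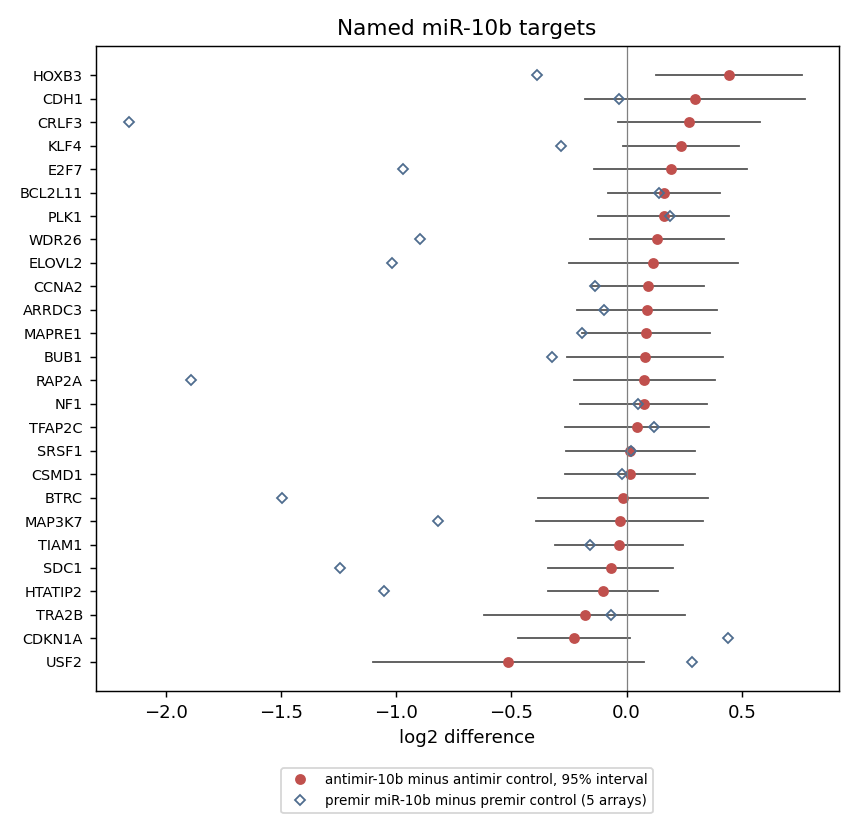
Log2 difference of each of the 26 measured named miR-10b targets (rows): red circles give antimir-10b minus antimir control with the 95% interval as a line, and open diamonds give premir miR-10b minus premir control from 5 arrays. After antimir-10b the points lie between -0.51 (USF2) and 0.44 (HOXB3), while after premir miR-10b they reach -2.16 (CRLF3).

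The genes that premir miR-10b changed give a second way to look at the inhibitor, since the 2 arms have separate controls. Premir miR-10b lowered 82 of 17201 features (0.477%) and raised 40 (0.233%) at an adjusted limma p under 0.05, in a fit of 11 arrays. The group means compared there were those of the premir arrays alone. The normalization, the detection filter, the probe of each symbol and the spread also drew on the antimir arrays. The premir values that chose these features had medians of -1.02 and 0.91. Of the 82 lowered features, 59 (72.0%) were above 0 after antimir-10b, with a median of 0.08, and 0 were called. Of the 40 raised features, 16 (40%) were above 0, with a median of -0.02, and 0 were called. Among all features the share above 0 was 50.4%. The lowered list shares 8 members with the named targets, and of its other 74 members 54 (73.0%) were above 0 with a median of 0.08. The count of 59 ran from 51 to 62 when single arrays or pairs of one number were left out. Under median centring and with the authors' scaled values 76 of the 82 and 30 of the 40 were above 0, with all features at 70.7% and 68.4%. The medians of the lowered list relative to all features were then 0.11 and 0.10, and those of the raised list 0.02 and 0.03.

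The differences of single members were small beside the premir differences. For each of the 82 lowered features the upper end of the 95% interval after antimir-10b lay below the size of its own premir fall. That outcome was close to fixed by the choice of features, whose premir differences were all -0.63 or lower. Of all features, 89.4% had an interval within 0.58 log2 units either way. By overlap, 10 of the 82 (12.2%) lay wholly above the controls and 2 (2.44%) wholly below, against 4.35% and 4.13% of all features. KCTD18 read 7.25, 7.16 and 7.47 with antimir-10b, against 6.95, 6.76 and 7.14 in controls, a difference of 0.34 (95% interval 0.04 to 0.65) against -1.28 after premir miR-10b. LRRC8B, a subunit of the volume-regulated anion channel, read 9.64, 9.38 and 9.71 with antimir-10b and 9.25, 9.37 and 9.20 in controls, a difference of 0.30 against -1.47. PER2, a repressor of the circadian clock, differed by 0.26 against -0.78, PANK2, the mitochondrial pantothenate kinase, by 0.25 against -0.84, and ACAD11, an acyl-CoA dehydrogenase, by 0.24 against -0.71. SS18L2, TMEM183A, TRAPPC13, C4orf46 and 1 probe without a symbol made up the rest, at 0.11 to 0.20. The 2 wholly below were NIPAL4, a magnesium transporter family gene, at -0.36 and HTATIP2 at -0.10. CMPK1, a nucleoside monophosphate kinase, read 9.59, 9.30 and 9.72 with antimir-10b, against 8.50, 9.31 and 9.45 in controls. Its difference of 0.45, against -1.89 after premir miR-10b, rests on antimir control replicate 1 and is 0.16 without that array.

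Among the 40 raised features, BASP1 lay wholly above the controls (0.20), and SEC24C, which builds the COPII vesicle coat (-0.26), and TMEM150A (-0.13) wholly below. These are 2.5% and 5% of the list, near the 4.35% and 4.13% of all features. The most negative was the chemokine gene CXCL1, which read 6.90, 6.95 and 7.27 with antimir-10b, against 7.65, 7.21 and 7.31 in controls, a difference of -0.35 against 0.94 after premir miR-10b. KCTD18, LRRC8B and the other members of these 2 lists, apart from the named targets and CXCL1, are named here after their values were seen. Read the other way, of the 277 features higher after antimir-10b at an unadjusted p under 0.05, 164 (59.2%) were below 0 after premir miR-10b, and of the 242 lower ones 103 (42.6%), against 49.4% of all features. Among the named genes, opposite signs were seen in E2F1, at -0.63 after antimir-10b and 0.61 after premir miR-10b, PPAN (-0.42 and 0.41), FMNL1 (-0.45 and 0.39) and BEND6 (0.40 and -0.33). The same sign in both arms was seen in TOR3A (-0.56 and -0.24), PIGO (-0.50 and -0.26), SETD6 (0.47 and 0.22), SNRNP48 (0.43 and 0.18) and PRDM16 (0.46 and 0.15). ANAPC2, GALNT4, ZNF574 and CBFA2T2 had premir differences between -0.02 and 0.09. None of the premir differences from E2F1 to CBFA2T2 was called, and the smallest limma adjusted p among them was 0.19 (E2F1). These genes were picked for their signs after the values were seen, and other named genes with opposite or like signs are not listed.

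**Figure D4:**
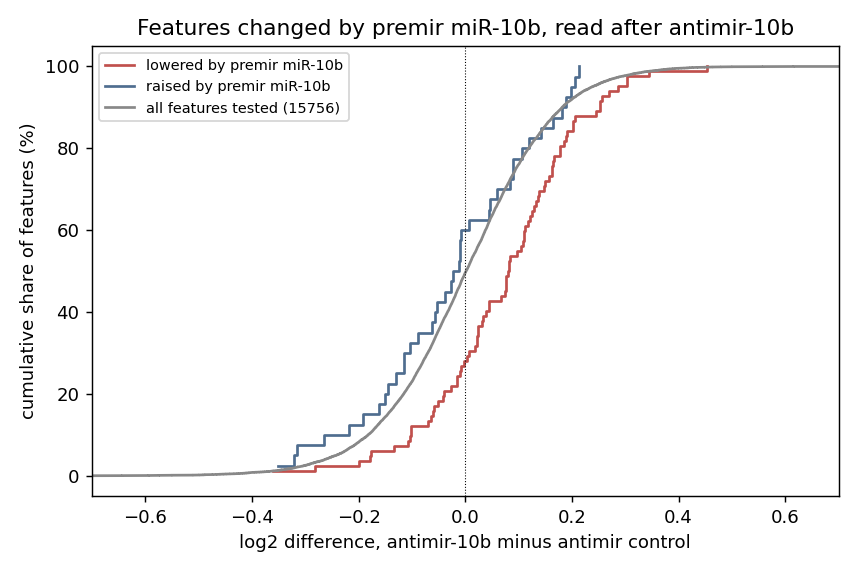
Cumulative share of features (y axis, %) by log2 difference, antimir-10b minus antimir control (x axis), for the 82 features lowered by premir miR-10b (red), the 40 raised (blue) and all 15756 tested (grey). The red curve crosses 0 with 59 of 82 features still to its right, and the lists' medians are 0.08 and -0.02.

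Genes of G2 and mitosis lay slightly higher with antimir-10b. Averaged over the 36 genes of the list, all of them measured, the arrays read 10.35, 10.27 and 10.32 with antimir-10b, against 10.23, 10.22 and 10.23 in controls. The means did not overlap, 27 of 36 members were above 0 (75%, against 50.4% of all features) and the median difference was 0.09, with 0 called. Separate means were not particular to this list. Those of the G1 and S phase list and of the heat shock list, both given below, did not overlap either and lay lower with antimir-10b. By overlap 5 members (13.9%) lay wholly above the controls: NEK2, a centrosome kinase (0.34; other probe 0.24), CDK1, the mitotic kinase (0.22), the spindle protein gene NUSAP1 (0.20), and the mitotic cyclins CCNB2 (0.18) and CCNB1 (0.16). ANAPC2, the cytokinesis kinesin KIF23 (-0.10) and the securin gene PTTG1 (-0.10) lay wholly below (8.33%). Over all features the shares were 4.35% above and 4.13% below. CDK1 read 10.30, 10.29 and 10.29 with antimir-10b, against 9.87, 10.12 and 10.22 in controls. The list median was 0.07 without antimir-10b replicate 1, 0.14 without antimir-10b replicate 2, and 0.20 and 0.21 with median centring and the authors' scaled values. Members other than ANAPC2, NEK2 and the named targets were singled out after their values were seen.

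The genes of G1, S phase and E2F activity did not lie on that side. Of 31 measured, 12 were above 0, the median was -0.04 and 0 were called. The list read 9.50, 9.46 and 9.52 with antimir-10b and 9.54, 9.54 and 9.54 in controls. PCNA, the sliding clamp of DNA polymerases, read 10.61, 10.72 and 10.81 with antimir-10b, against 10.02, 10.40 and 10.56 in controls, without overlap and with a difference of 0.38 (other probe 0.08). E2F1, the licensing factor CDT1 (-0.30), the cyclin gene CCND3 (-0.18) and E2F2 (-0.13) lay wholly below the controls. The helicase subunits MCM2, MCM4, MCM5 and MCM7 differed by -0.16 to -0.28 with overlapping groups. By overlap 1 member of the list (3.23%) lay wholly above the controls and 4 (12.9%) wholly below, against 4.35% and 4.13% of all features. CDT1, CCND3, E2F2 and the MCM genes were singled out after their values were seen.

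The interferon response list had the largest median of all lists, and its members varied more between replicates than between groups. These genes encode antiviral proteins that interferon induces, and foreign RNA in the cytoplasm can start the same response. Of 42 measured members 39 were above 0, with a median difference of 0.33, and 0 were called. The list mean was 8.54, 8.55 and 7.67 with antimir-10b, against 8.39, 7.69 and 7.75 in controls. Antimir-10b replicates 1 and 2 and antimir control replicate 1 were thus high, and antimir-10b replicate 3 and antimir control replicates 2 and 3 low, so the groups overlapped fully. Control replicate 1 lay above both other controls for 40 of the 42 members, against 39.2% of all features. Antimir-10b replicate 3 lay below both other antimir-10b arrays for 37 of 42, against 34.1%. Without replicate 2 of both groups the list median was 0.04, with 27 of 42 above 0, and without antimir-10b replicate 3 it was 0.58. It was 0.15 and 0.18 without antimir-10b replicate 1 and 2, 0.19 and 0.20 without antimir control replicates 3 and 2, and 0.55 without antimir control replicate 1. By replicate number, 1 was high and 3 low in both groups, while 2 was high with antimir-10b and low in controls. No slide or day is given in the labels, so a batch behind the split was not tested.

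Single members show the same split. MX1, a dynamin-like GTPase that blocks viruses, read 11.82, 11.96 and 8.83 with antimir-10b, against 11.80, 9.07 and 9.54 in controls. Its difference of 0.73 carried a 95% interval from -1.09 to 2.56, and its standard deviation within groups, 1.62, was the largest of all features. OAS2, which makes the activator of RNase L, read 7.36, 7.53 and 5.19 with antimir-10b, against 7.17, 5.18 and 5.35 in controls. IFIT1, which binds RNA without a methylated cap, read 10.51, 10.68 and 9.02 with antimir-10b and 10.21, 9.03 and 9.30 in controls. ISG15, a ubiquitin-like modifier, read 12.25, 12.24 and 10.96 with antimir-10b and 12.36, 11.12 and 10.93 in controls. In each of MX1, OAS2, IFIT1 and ISG15 the same 3 arrays were high. Of the 40 features with the widest spread within groups 11 were on the interferon list, and control replicate 1 exceeded the other controls in 35 of the 40. MX1, OAS2, IFIT1, IFIT3, IFI6 and ISG15 were chosen for that spread.

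IFIT5, which binds RNA ends, had a smaller spread. IFIT5 read 6.24, 6.16 and 6.25 with antimir-10b, against 5.999, 5.35 and 5.74 in controls, so the groups did not overlap. The difference was 0.52 (95% interval 0.17 to 0.88), with an unadjusted limma p of 0.00769 and an adjusted p of 0.997, and of the 42 members it alone had an interval that left out 0. IFI44 (0.20) and the antibody receptor gene TRIM21 (0.15) were the other 2 members wholly above the controls, which makes 7.14% of the list against 4.35% of all features, and 0 lay wholly below against 4.13%. The lowest member was the transcription factor IRF1 (-0.24), with MX2 (-0.05) and the immunoproteasome subunit PSMB8 (-0.13) also below 0. IFI44, TRIM21, MX2, PSMB8 and, for their promoters, OAS1, IRF9 and ISG20 are named here after their values were seen.

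Promoters of the list were searched for a motif. The letters GAAA, a gap of any 2 bases and GAAA again, the core of the interferon-stimulated response element, were searched on both strands from 250 bases before to 50 bases after each annotated start in RefSeq promoters of GRCh38.p14. Of the 34 measured list members that the promoter table holds, 24 (70.6%) carried a match, against 1195 of 27305 genes (4.38%) in the whole table. The list was made of genes that interferon induces, so this share describes the list and is not a result of these arrays. A match was found in 0 of 30 G2 and mitosis genes, 0 of 21 named targets and 2 of 59 lowered by premir miR-10b. The motif nearest the start, upstream of it, is shown for IFIT5, a member whose groups did not overlap, and for IFIT1, IFIT3, IFI6 and ISG15, whose arrays split as MX1 did. Members with the same split and no match include OAS1 and IRF9, and TRIM21 and ISG20 hold a match without that split. Each stretch reads 5′ to 3′ on the strand of the gene, with the match in capitals; where it reads TTTC it lies on the other strand.
IFIT5: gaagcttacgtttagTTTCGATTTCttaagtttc
IFIT1: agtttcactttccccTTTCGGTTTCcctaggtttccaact
IFIT3: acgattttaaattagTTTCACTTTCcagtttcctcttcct
IFI6: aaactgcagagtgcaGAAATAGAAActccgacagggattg
ISG15: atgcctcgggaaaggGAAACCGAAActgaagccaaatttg
These lie at chr10:89414534-89414567 (plus strand) for IFIT5, chr10:89392505-89392544 (plus) for IFIT1, chr10:89327860-89327899 (plus) for IFIT3, chr1:27672261-27672300 (minus) for IFI6 and chr1:1013375-1013414 (plus) for ISG15. The matches begin 19, 103, 122, 93 and 107 bases before the start. A match is a description of the sequence and says nothing of binding in these cells. IFIT3 read 9.11, 9.40 and 7.64 with antimir-10b and 9.10, 7.60 and 7.82 in controls, and IFI6 read 11.48, 11.45 and 9.66 with antimir-10b and 11.59, 9.91 and 9.97 in controls.

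The cholesterol and fatty acid synthesis list followed the same arrays. Its 21 measured genes averaged 9.10, 9.09 and 8.68 with antimir-10b, against 9.04, 8.77 and 8.75 in controls, so the groups overlapped. Of these 15 were above 0, the median was 0.12 and 0 were called. INSIG1, which holds SREBP in the endoplasmic reticulum, read 10.06, 9.95 and 9.36 with antimir-10b and 9.60, 9.25 and 9.22 in controls. Its difference was 0.44 (other probe 0.40), with an unadjusted limma p of 0.0403. FADS2, a fatty acid desaturase, had the smallest p below 0 (-0.23), with a sign that turned to 0.19 without antimir-10b replicate 3. The list median was 0.03 at its lowest when arrays were left out and 0.31 at its highest across all settings.

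**Figure D5:**
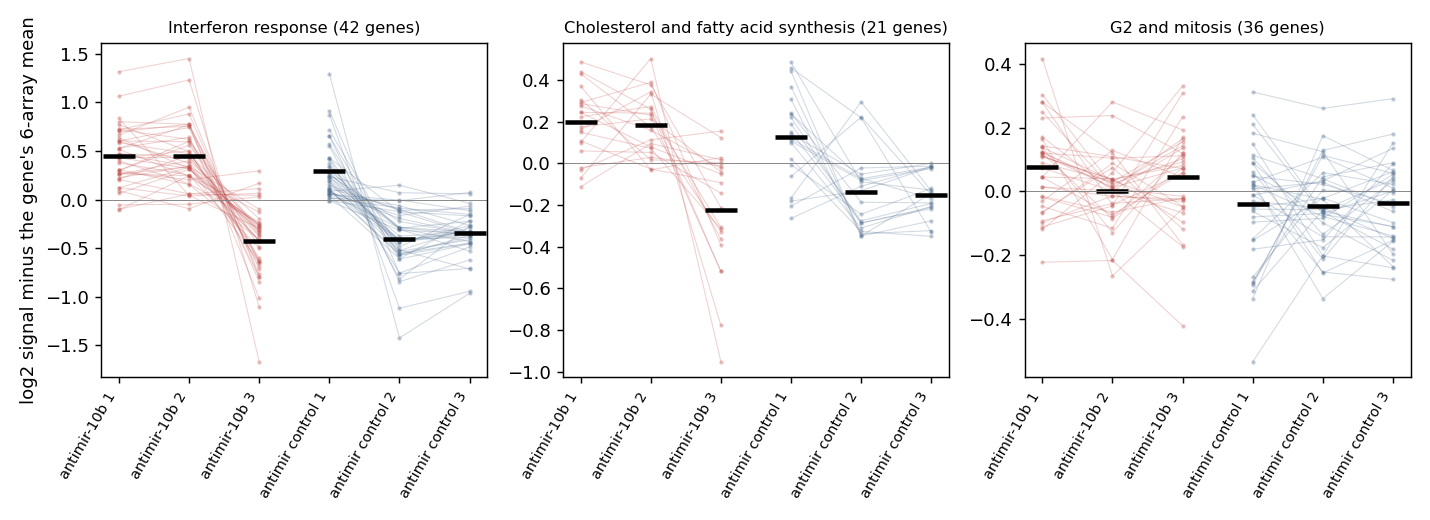
Log2 signal of each gene minus its mean over the 6 arrays (y axis) on the 3 antimir-10b arrays (red) and the 3 antimir control arrays (blue) for 3 gene lists; a thin line joins the values of 1 gene and a black bar is the list mean. Interferon genes are high on antimir-10b replicates 1 and 2 and control replicate 1, cholesterol genes likewise by less, and the G2 and mitosis means lie between 10.22 and 10.35 before that subtraction.

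Leaving aside the cell type markers, the remaining lists had medians between -0.09 and 0.07, 0 members called in each, and are given with their members of smallest p. Heat shock and oxidative stress genes were below 0 in 16 of 20, with a median of -0.09 and with array means of 11.08, 11.12 and 11.04 for antimir-10b and 11.15, 11.17 and 11.25 in controls. The array means of this list did not overlap. DNAJB5 and, on the higher side, the chaperone HSP90AA1 (0.13; other probes 0.04 and 0.12) led it. NF-kB and chemokine genes were below 0 in 13 of 17, with a median of -0.07, led by CXCL1 (-0.35) and, above 0, by the mitochondrial superoxide dismutase SOD2 (0.21; other probe 0.20). Hypoxia and glycolysis genes were below 0 in 16 of 23, led by the glucose transporter SLC2A1, which lay wholly below the controls (-0.24), and above 0 by BNIP3 (0.13). With median centring or the authors' scaled values, medians this close to 0 could change sign, and that of the heat shock list reached 0.04.

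The pathways tied to miR-10b and pancreatic cancer invasion had members on both sides of 0, where 50.4% of all features lay above it. In the EGF receptor pathway 8 of 17 were above 0 (median -0.02), with MAP2K2, the kinase MEK2, at -0.65 and overlapping groups: 10.001, 9.92 and 9.04 with antimir-10b, against 10.71, 10.34 and 9.87 in controls. ERK output genes were above 0 in 6 of 14 (median -0.03), led by ETV4 below and the phosphatase DUSP6 above 0 (0.16). In the TGF-beta pathway 13 of 20 were above 0 (median 0.02), with the coreceptor TGFBR3 at 0.32 and the inhibitor of differentiation ID1 at -0.12 (other probe 0.04). Epithelial genes were above 0 in 5 of 14 and mesenchymal genes in 8 of 12, with medians of -0.01 and 0.07. EPCAM, an epithelial adhesion molecule, lay wholly above the controls (0.33; other probe 0.01), the keratin KRT18 was at -0.43 (other probe -0.28), the fibronectin receptor subunit ITGA5 lay wholly below (-0.29), and the matrix protein gene THBS1 was at 0.34. Invasion and protease genes were above 0 in 8 of 15, with the sheddase ADAM17 wholly below (-0.21; other probe -0.06) and the inhibitor TIMP1 at 0.16.

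Of 18 measured HOX genes 7 were above 0 (median -0.05), with the smallest p at HOXB3 above 0 and at HOXB2 below 0 (-0.32). p53 targets were above 0 in 7 of 16, with TP53I3 at 0.30 (other probe 0.06) and CDKN1A at -0.23. Apoptosis genes were above 0 in 11 of 21, with BID (0.24; other probe 0.20) wholly above the controls and the effector BAK1 at -0.43. Genes of small RNA machinery were above 0 in 9 of 22, with the Argonaute partner TNRC6A at 0.33 and GEMIN4 at -0.22. Ribosomal protein genes were above 0 in 13 of 26 (RPS19 0.11, RPS2 -0.23), genes of mitochondrial respiration in 18 of 29 (the complex I subunit NDUFA9 0.28, cytochrome c CYCS -0.10) and those of the unfolded protein response in 9 of 20 (DNAJB9 0.20, TRIB3 -0.17). Metallothionein and zinc transport genes were above 0 in 5 of 10, with MT1F at 0.25 and SLC39A14 at -0.09.

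Ductal markers were the most complete of the cell type lists, with 7 of 12 ductal markers measured. KRT19, the ductal keratin, read 11.91, 11.83 and 11.73 with antimir-10b and 11.94, 11.94 and 11.89 in controls. SOX9, a transcription factor of duct cells, differed without overlap (0.20) and read 10.64, 10.55 and 10.75 with antimir-10b and 10.48, 10.37 and 10.50 in controls. Acinar markers were measured in 0 of 8. Islet markers were measured in 1 of 6, the granule protein CHGA (-0.30), which was detected on 1 antimir-10b array. Fibroblast markers were measured in 2 of 10, where COL1A1 read 8.93, 8.98 and 8.09 with antimir-10b and 9.15, 8.29 and 8.34 in controls. Endothelial markers were measured in 1 of 7, the TGF-beta coreceptor ENG (-0.32), and leukocyte markers in 3 of 8, with CD14 at 0.12 and ITGAM at -0.10. KRT19 and SOX9 are named here as the lineage check, after their values were seen.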

How the data were processed

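Total RNA of PANC-1 cells was extracted with Trizol, biotin-labelled (TotalPrep) and read on Illumina BeadChips, per the labels' protocols. For each of 47231 probes the authors deposited linear intensity values without normalization between arrays. Detection p-values stand beside them in the deposited table. A second deposited table holds the intensity multiplied by 1 constant for each array, and served as an alternative. Scanning software is not given in the sources used here.

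The 6 arrays were analysed alone in R 4.3.3 with limma 3.58.1. Background was corrected by neqc with an offset of 16, followed by quantile normalization and log2. Probes with a detection p under 0.05 on at least 3 arrays were kept, and the probe with the highest mean stood for a symbol. The platform annotation gives 1 symbol to 30113 probes, several to 8 and none to 17110. LmFit and eBayes tested antimir-10b minus antimir control, two-sided, with Benjamini-Hochberg adjustment over all 15756 features and a call at an adjusted p under 0.05. Intervals are 95% intervals from this fit and cover the spread between these 3 replicates a group; the number of arrays limits their precision. The premir lists came from the same steps on 11 arrays. Named in the text are, in each direction, the 12 features with a symbol and the smallest p, the 8 largest differences without overlap, the smallest-p members of each of 28 gene lists, and 19 fixed genes; locus identifiers are not named. The members and lists were chosen with earlier results of these data known. Same-numbered arrays had correlations of deviations of 0.166, -0.109 and 0.372, so replicate numbers were not taken as pairs. The fit was checked on simulated data with independent noise for each feature. That check does not set how small a change these 6 arrays could reveal. Matches of 3′ untranslated regions to miR-10b were not analysed here.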

Additional observations from a re-analysis of the deposited data

How the results depend on the processing

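Over 22 other settings 0 features were called at an adjusted limma p under 0.05 in every one. The number at an unadjusted p under 0.05, 519 as reported, was 46 with 12 arrays fitted, 2168 with array weights (3.04, 0.802 and 0.417 for antimir-10b and 0.444, 2.09 and 1.06 for antimir control, with a smallest adjusted p of 0.0539), 308 with detection at p under 0.01 on all 6 arrays, 1594 without a filter, and 285 to 943 with arrays left out. With the replicate block it was 794. The same-number correlations of deviations were 0.166, -0.109 and 0.372, and antimir-10b replicates 1 and 3 each correlated best with the control of the same number. Antimir-10b replicate 2 correlated best with antimir control replicate 1 (0.363), so the numbers were not taken as pairs. Of 1878 gene values 1839 kept their direction and 39 reversed. With median centring BTRC was 0.074, CYCS 0.011, HTATIP2 0.018, SDC1 0.057 and SLC39A14 0.029, and with the authors' scaled values BTRC was 0.043, CYCS 0.0047, HTATIP2 0.039, ID1 0.020, SDC1 0.078 and SLC39A14 0.045. Median centring and the authors' scaling place the median of all features at 0.080 and 0.066. Relative to that median BTRC was -0.007 and -0.023, HTATIP2 -0.062 and -0.026, and SDC1 -0.023 and 0.012. With array weights DUSP6 was -0.082 and NF1 -0.042. With arrays left out, values that crossed 0 ran from -0.22 to 0.13 for BTRC, -0.24 to 0.36 for COL1A1, -0.18 to 0.014 for CYCS, -0.058 to 0.42 for DUSP6, -0.54 to 0.19 for FADS2, -0.30 to 0.095 for ID1, -0.18 to 0.017 for ITGAM, -0.010 to 0.15 for NF1, -0.14 to 0.010 for SDC1 and -0.15 to 0.042 for TIAM1. The cause was not tested. List medians moved as follows with median centring and the authors' scaled values, which place all features at 0.08 and 0.07: G2 and mitosis 0.20 and 0.21, lowered by premir miR-10b 0.19 and 0.17, named targets 0.17 and 0.17, and raised by premir miR-10b 0.10 and 0.10 with 30 and 30 of 40 above 0. The G2 and mitosis median was 0.14 with array weights, and the named target median 0.020 without a filter. With arrays left out the medians ran from 0.065 to 0.14 for G2 and mitosis, 0.056 to 0.12 for the lowered list, -0.0040 to 0.13 for named targets and -0.043 to 0.023 for the raised list. With 3 arrays a group, the median half-width of a 95% interval was 0.29 log2 units. A typical feature thus needs a difference above 0.29 for its own unadjusted interval to leave out 0. That is not the size needed for a call after adjustment over all features. ANAPC2 at -0.57 and E2F1 at -0.63 had intervals that left out 0, each with a limma adjusted p of 0.997. The offset shrinks differences of dim genes such as ANAPC2 and PRDM16.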

Other observations

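The features with the widest spread within groups included small structural RNAs beside the interferon genes. RNA5S9, a 5S ribosomal RNA, read 12.49, 12.24 and 11.06 with antimir-10b, against 12.80, 11.76 and 11.20 in controls. VTRNA1-1, a vault RNA, read 10.93, 10.56 and 9.64 with antimir-10b, against 11.01, 9.99 and 9.39 in controls. RNU1-3, a U1 small nuclear RNA gene with near-identical copies, read 8.46, 8.74 and 7.23 with antimir-10b and 8.24, 7.27 and 7.07 in controls. RNY5, a Y RNA, read 7.33, 6.94 and 6.39 with antimir-10b and 7.67, 6.37 and 6.27 in controls. In these 4 RNAs antimir-10b replicates 1 and 2 and control replicate 1 were again the high arrays. RGS2, a regulator of G protein signalling, ran the other way, at 5.82, 5.73 and 7.69 with antimir-10b and 5.46, 6.72 and 7.05 in controls. Its difference between groups was 0.005. The ribosomal RNAs RNA18SN5 and RNA28SN5, also of wide spread, did not split as RNA5S9, VTRNA1-1, RNU1-3 and RNY5 did. RNA28SN5 read 8.99, 10.41 and 9.13 with antimir-10b and 10.46, 10.20 and 9.55 in controls. All genes of this paragraph were chosen for their spread after the values were seen, and what moves some of them together was not tested.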
